A study of Mus musculus with 61 samples.

Results

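Sarcomeric myosin heavy chains are the motor subunits of the thick filament, and the gene a muscle fibre uses sets much of its speed of contraction. In adult rodent limb muscle Myh4 encodes the fastest chain (type IIB), Myh1 the IIX chain, Myh2 the IIA chain and Myh7 the slow type I chain, which is also the beta chain of the heart. Myh6 encodes the alpha chain of the heart, Myh7b a slow-tonic chain whose gene also carries a microRNA, Myh3 the embryonic chain and Myh8 the perinatal chain, and the last pair falls to low levels as muscle matures. These 8 genes were taken from the count table by their symbols, and all 8 were found among its 19462 genes. They were chosen with earlier results of these data known, but not for a pattern among strains.

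RNA of mouse skeletal muscle was sequenced in 61 libraries. The 8 strains are founders of the DO (Diversity Outbred) population. By the sample titles, 8 libraries each came from B6, AJ, NZO, 129 and WSB, and 7 each from PWK, Cast and NOD. Every strain was on the high-fat, high-sugar diet, labelled as 45 percent fat, so no group on another diet is compared here and no strain is a control. The labels give no age or sex and do not say which muscle was taken or whether each library is a separate animal. A p-value therefore measures library-to-library spread, which may be technical in part.

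Total counts ran from 17.1 to 65.2 M (1 M is 1e6 counts) per library, with a median of 33.7 M. The muscle label was checked against 8 fibre markers, including Acta1, Ckm and Ttn, whose summed level was 66369 to 175334 CPM (counts per 1e6 counts of a library, scaled by TMM) in all 61 libraries. The heart markers summed to 4.84 to 18.3 CPM over the 6 of 10 analysed here, with Tnni3 at most 0.165 CPM and Bmp10 at most 0.0988 CPM as strain means. Of the libraries, 16 stood apart, all of them from B6, Cast, PWK or WSB. In library B6_5 the ribosomal transcript Rn18s-rs5 took 46.3% of all counts, against a median of 6.41%, and the other 15 carried high sums of hepatocyte, keratinocyte or lymphocyte markers. The 5 called differences in level of a member that lost their call without these 16 libraries are given both ways. Some other combinations of member and strain gained a call without them and are not named. Genes outside the family are given with all libraries only. Among the later results, 4 of 10 called differences in family shares lost their call, and others gained one. Of 28 relations between members, 5 lost their call and 1 gained it. Not all of these are printed.

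Most of the family sits in 2 clusters of the GRCm38 genome. On chromosome 11, all on the plus strand and in this order, lie Myh3 at chr11:67078300-67102291, Myh2 at chr11:67171027-67197517, Myh1 at chr11:67200052-67224575, Myh4 at chr11:67238029-67260446 and Myh8 at chr11:67277124-67308634. On chromosome 14, on the minus strand, lie Myh7 at chr14:54970684-54994626 and Myh6 at chr14:54941921-54966927. Myh7b lies alone at chr2:155611212-155634307 on the plus strand.

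The coding sequences of several members are close to each other. A read that falls in a stretch identical in both genes cannot be told apart, and read length is not given in the sources used here. Myh7 and Myh6 were identical at 91.9% of aligned coding bases, Myh1 and Myh2 at 91.1%, Myh1 and Myh4 at 90.3% and Myh1 and Myh8 at 89.4%, in transcripts of GENCODE M21. Of all windows of 100 bases in the Myh7 transcript, 11.2% occurred unchanged in Myh6, and 2.66% of those of Myh1 in Myh8. Myh3 and Myh7b shared no such window with any member. The deposited estimates were exactly whole numbers in 100.0% of libraries for Myh7b and 34.4% for Myh3, and in 0.0% for the other 6. The longest run that Myh7 and Myh6 share is 245 coding bases, read from exons 32 and 33 of Myh7 (chr14:54974947-54975347, minus strand) and from exons 30 and 31 of Myh6 (chr14:54948327-54948725, minus strand). It is shown because a read from it does not tell the 2 genes apart:
Myh7 and Myh6: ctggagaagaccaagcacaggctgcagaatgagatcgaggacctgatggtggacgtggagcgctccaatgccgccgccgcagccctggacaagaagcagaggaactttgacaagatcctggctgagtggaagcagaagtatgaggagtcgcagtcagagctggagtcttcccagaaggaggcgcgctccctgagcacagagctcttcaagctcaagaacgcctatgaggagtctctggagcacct

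Other stretches do tell them apart. The 60 aligned coding bases with the most differences between Myh7 (chr14:54980378-54982191, minus strand, exons 26 and 27) and Myh6 (chr14:54952303-54952599, minus strand, exons 24 and 25) differ at 27 bases, which are in capitals:
Myh7: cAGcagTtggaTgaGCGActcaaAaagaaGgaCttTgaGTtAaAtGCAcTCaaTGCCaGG
Myh6: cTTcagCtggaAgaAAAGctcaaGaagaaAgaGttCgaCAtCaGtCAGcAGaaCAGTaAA

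The same comparison of Myh1 (chr11:67221327-67221386, plus strand, exon 36) and Myh8 (chr11:67305649-67305708, plus strand, exon 36) gave 23 differences in 60 bases, again in capitals:
Myh1: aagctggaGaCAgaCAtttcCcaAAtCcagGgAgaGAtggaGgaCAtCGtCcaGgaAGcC
Myh8: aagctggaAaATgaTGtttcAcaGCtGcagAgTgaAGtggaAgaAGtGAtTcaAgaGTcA

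Upstream, 4 of the 5 members on chromosome 11 share a run of bases. All 8 members had a RefSeq promoter window (GRCm38.p6, 250 bases before to 50 after the gene's start). The longest run common to the windows of Myh2, Myh1, Myh4 and Myh8, a set picked after the windows were read, is TTCTAATTATATCC, in capitals here. Searched on either strand, it was found in 4 of 32851 promoters (0.0122%), those of these 4 genes, where it starts 125, 160, 158 and 54 bases before the RefSeq start in the order given. For Myh1 and Myh4 the RefSeq start is not the annotated gene start given above, so distances to that start differ. The longest run common to Myh1, Myh4 and Myh8 is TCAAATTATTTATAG, which does not overlap the first and was found in 3 promoters (0.00913%). The windows are shown because the levels of these 4 neighbours are compared below, and a match of letters says nothing of a factor that binds there. From top to bottom they are chr11:67170831-67170930, chr11:67199871-67199970, chr11:67237583-67237682 and chr11:67276999-67277098, all on the plus strand:
Myh2: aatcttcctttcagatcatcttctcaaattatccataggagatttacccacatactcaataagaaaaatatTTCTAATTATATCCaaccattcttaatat
Myh1: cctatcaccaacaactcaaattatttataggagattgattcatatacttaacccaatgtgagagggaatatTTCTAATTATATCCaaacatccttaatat
Myh4: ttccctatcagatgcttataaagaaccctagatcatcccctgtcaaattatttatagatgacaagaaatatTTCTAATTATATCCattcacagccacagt
Myh8: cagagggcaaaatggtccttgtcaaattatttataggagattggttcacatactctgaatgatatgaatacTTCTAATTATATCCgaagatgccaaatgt

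Myh4 dominated the family in every strain. Together the 8 genes took a median of 7.61% of all counts of a library, and Myh4 alone 6.48%. Library B6_5 held the lowest family value, 2.47%, and the next lowest was 6.27%. Per kilobase of exon, the mean of the 8 strain means was 10684 CPM for Myh4, 1029 CPM for Myh1, 492 CPM for Myh2 and 133 CPM for Myh7. The other 4 members lay far lower, at 3.88 CPM per kilobase for Myh6, 1.96 for Myh3, 1.39 for Myh7b and 1.24 for Myh8. The level of Myh8 depends on the length used, since its annotated exons together span 11772 bases and its coding transcript 6149 bases.

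All 8 members differed among the 8 strains in edgeR's quasi-likelihood test at an adjusted p under 0.05, where 85.5% of the 16682 genes tested did. The size of the difference varied widely among members. The range, the log2 difference between the highest and the lowest strain, was 0.43 for Myh4 and 0.68 for Myh2, below the median of 0.91 over all genes. It was 1.01 for Myh1, 1.18 for Myh7, 1.51 for Myh7b, 2.35 for Myh3, 4.28 for Myh8 and 4.47 for Myh6. By the size of the F statistic Myh8 ranked 124 and Myh6 211 among all genes tested (adjusted p 1.04e-28 and 5.22e-26), while Myh4 ranked 10909 (adjusted p 0.000992). In bulk tissue, fewer fibres of a type and less RNA per fibre cannot be told apart.

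**Figure D1:**
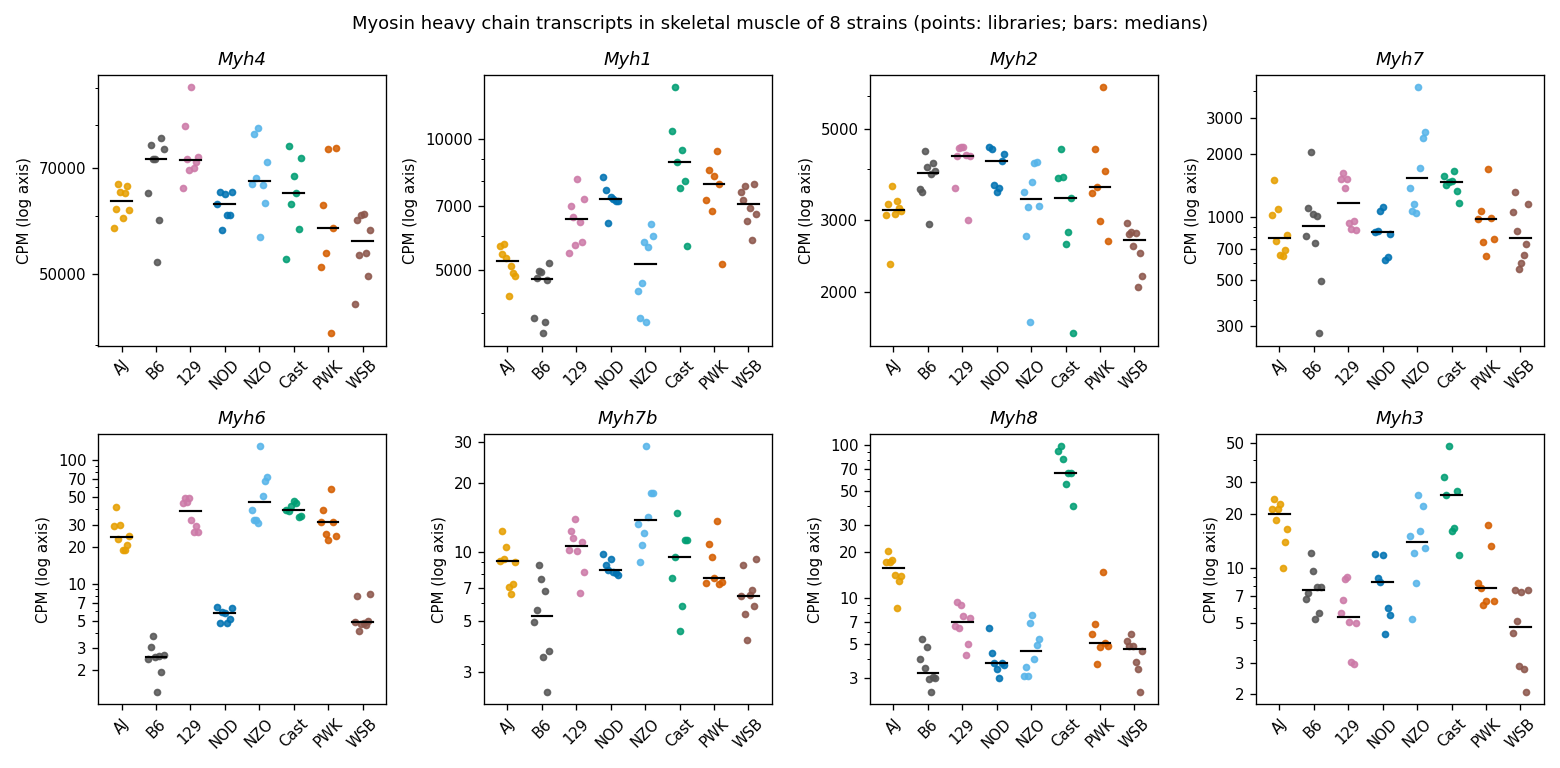
Level of each myosin heavy chain gene (CPM, log axis) in the 61 libraries by strain, with 1 point per library and a bar at the median of each strain. Myh8 in Cast lies between 40.1 and 99.1 CPM, above every library of the other strains, and Myh6 in B6 lies between 1.33 and 3.79 CPM, below every library of the others.

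Each strain was then compared with the mean of the other 7 strains, and 33 of the 64 combinations of member and strain passed the threshold. Cast had 5 members higher and 0 lower, in a strain where 61.8% of all genes were called, 33.8% higher and 27.9% lower. NZO had 4 higher and 2 lower, where 27.3% of all genes were called (14.6% higher, 12.7% lower). WSB had 0 higher and 6 lower, where 38.3% were called (21.4% higher, 17.0% lower). Both AJ and 129 had 3 members higher and 1 lower, where 31.7% of all genes were called in AJ (16.8% higher, 14.9% lower) and 25.6% in 129 (14.2% higher, 11.4% lower). B6 had 0 higher and 4 lower, beside 26.2% of all genes (15.0% higher, 11.2% lower). PWK had 2 higher and 0 lower, beside 41.0% of all genes (20.6% higher, 20.3% lower), and NOD had 0 higher and 2 lower, beside 21.6% (11.9% higher, 9.79% lower). By member the calls ran from 2 of 8 strains for Myh2, Myh4 and Myh7 to 8 of 8 for Myh6.

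**Figure D2:**
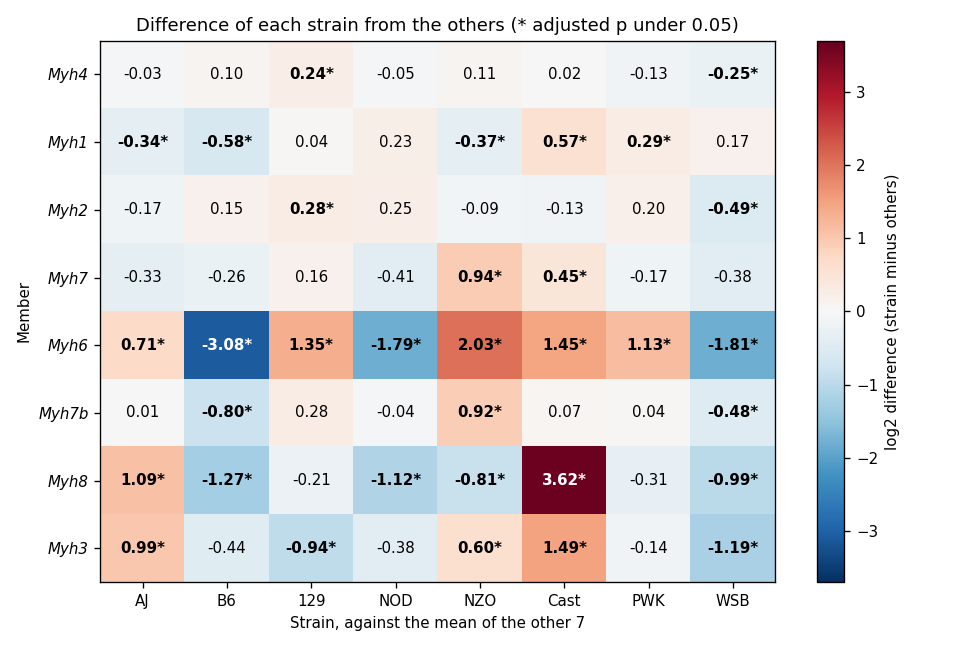
Log2 difference of each member in each strain from the mean of the other 7 strains, from the edgeR fit, with an asterisk where the adjusted p was under 0.05. The largest differences are Myh8 in Cast (3.62) and Myh6 in B6 (-3.08), and Myh7, Myh6 and Myh7b are all higher in NZO.

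Myh4, the IIB chain and by far the most abundant member, varied least. Its mean level was 73853 ± 7727 CPM in 129, 68460.1 ± 7559 in NZO, 68217 ± 8797 in B6 and 64624 ± 7939.5 in Cast (SD over the libraries of the strain, here and below). It was 62745 ± 3151 CPM in AJ, 62057.5 ± 2865 in NOD, 59299 ± 12117 in PWK and 54929 ± 5433 in WSB. No 2 neighbours in this order were separated by the test. The 129 libraries had a lowest, median and highest value of 65651, 71637 and 90218 CPM and WSB 45494, 55497 and 60495 CPM, so these strains at the ends of the order did not overlap. Against the mean of the other strains, Myh4 was higher in 129 (log2 difference 0.24, SE 0.066, adjusted p 0.00571) and lower in WSB (-0.25, SE 0.069, adjusted p 0.00268). Without the 16 libraries that stood apart, 5 of them from WSB, the WSB difference was -0.20 and the call was lost (adjusted p 0.122).

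Myh1, the IIX chain, split the strains more clearly. Mean levels were 9023 ± 2334 CPM in Cast, 7597 ± 1354 in PWK, 7323 ± 529 in NOD and 7056 ± 689.9 in WSB. They were 6549 ± 892 CPM in 129, 5185 ± 462 in AJ, 5088 ± 997 in NZO and 4492 ± 628 in B6. Of the 7 neighbouring pairs only 129 and AJ were separated (log2 difference 0.34, adjusted p 0.0274). The Cast libraries ran from 5692 over a median of 8835 to 13116 CPM, and 3 of the 7 lay above every other library. Those of B6 ran from 3584 over 4769 to 5190.4 CPM, and all of them lay below the lowest Cast library. Myh1 was higher in Cast (log2 difference 0.57, SE 0.087, adjusted p 9.8e-08) and PWK (0.29, adjusted p 0.00703) than the mean of the other strains. It was lower in B6 (-0.58, SE 0.091, adjusted p 9.3e-07), NZO (-0.37, adjusted p 0.000891) and AJ (-0.34, adjusted p 0.00194).

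Myh2, the IIA chain of fast oxidative fibres, showed a smaller spread. Mean levels were 4124 ± 541 CPM in 129, 4033 ± 434 in NOD, 3927 ± 1209.7 in PWK and 3797 ± 457 in B6. They were 3296 ± 804 CPM in NZO, 3209.5 ± 954 in Cast, 3140.3 ± 368 in AJ and 2578 ± 318 in WSB, and no neighbours were separated. WSB libraries lay at 2052, 2682 and 2952 CPM (lowest, median, highest), and all 8 were below the median of the other libraries. Myh2 was lower in WSB than in the other strains (log2 difference -0.49, SE 0.115, adjusted p 0.000449). It was also higher in 129 (0.28, SE 0.107, adjusted p 0.0445). This second call was weak: 10 of the 61 removals of a single library (6 from 129, 2 from NOD, PWK_4 and WSB_9) ended it, with adjusted p up to 0.0908, and so did leaving out the libraries that stood apart (0.20, adjusted p 0.113).

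Myh7, the slow type I chain, was highest in NZO. Mean levels were 1940.5 ± 1083 CPM in NZO, 1446 ± 158 in Cast, 1212 ± 330.2 in 129 and 989 ± 348 in PWK. They were 941 ± 528 CPM in B6, 900.5 ± 293 in AJ, 870.1 ± 279.8 in WSB and 856 ± 189 in NOD, and no neighbours were separated. NZO libraries lay at 1050, 1546 and 4196 CPM (lowest, median, highest), and 3 of the 8 were above every other library. They split by title number, with NZO_1 to NZO_4 at 1714.5 to 4196 CPM and NZO_5 to NZO_8 at 1050 to 1377.5 CPM. The same libraries split in Myh6 (51.18 to 130.0 against 31.12 to 39.7 CPM) and Myh7b (14.15 to 28.84 against 9.048 to 13.22 CPM). What sets them apart was not tested. The strains overlapped in Myh7, since B6 ran from 277.5 over 911 to 2044 CPM. Myh7 was higher in NZO than in the other strains (log2 difference 0.94, SE 0.18, adjusted p 4.29e-05), and 0.68 with the same call without NZO_1, the highest library.

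Cast was the other strain with higher Myh7 (log2 difference 0.45, SE 0.198, adjusted p 0.043). Its libraries were close together, at 1175, 1470.3 and 1662 CPM (lowest, median, highest), and all 7 lay above the median of the other libraries. This call too was weak in the fit by strain alone. There, 9 removals of a single library (6 from Cast, PWK_1, NOD_5 and B6_5) ended it, with adjusted p up to 0.0911. Without the libraries that stood apart the difference was 0.47 with an adjusted p of 0.208. With log2 CPM of the transcript Xist beside strain, a fit described below, the difference was larger, 0.66 (adjusted p 0.000187). With the replicate number of the titles as a block it was 0.55 and kept its call.

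Myh6, the alpha cardiac chain, separated the strains into a low and a high set. Mean levels were 57.4 ± 33.6 CPM in NZO, 40.4 ± 4.72 in Cast, 38.0 ± 10.3 in 129, 33.3 ± 12.3 in PWK and 25.8 ± 7.60 in AJ. They were 5.64 ± 0.709 CPM in NOD, 5.57 ± 1.61 in WSB and 2.55 ± 0.726 in B6. The lowest library of the first 5 strains had 18.8 CPM and the highest of the other 3 had 8.30 CPM, so the sets did not overlap. Neighbours were separated between NZO and Cast (log2 difference 0.51, adjusted p 0.0455), between AJ and NOD (2.19, adjusted p 8.58e-11) and between WSB and B6 (1.10, adjusted p 0.000158).

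Against the mean of the others, Myh6 was higher in NZO (log2 difference 2.03, SE 0.138, adjusted p 2.55e-18), Cast (1.45), 129 (1.35), PWK (1.13) and AJ (0.71). The arithmetic means of AJ and of the other strains were nearly equal, 25.8 and 26.1 CPM, and the positive value for AJ arises on the log2 scale. Myh6 was lower in B6 (-3.08, SE 0.214, adjusted p 5.5e-18), where libraries lay at 1.33, 2.58 and 3.79 CPM (lowest, median, highest). It was also lower in WSB (-1.81) and NOD (-1.79). When counts of Myh6 and Myh7 were added into 1 feature, the sign turned in AJ (-0.315) and PWK (-0.15), and the calls in B6, 129, NOD and WSB were lost. Myh7 prevails in this sum, at a mean of 1144 CPM over strains against 26.1 CPM for Myh6. The sum therefore follows Myh7 and does not test the differences of Myh6.

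Heart and muscle spindle markers were set beside Myh6, since both heart and the fibres within spindles use it. The heart marker sum was highest in AJ, at 13.7 to 18.3 CPM. Of its markers, Myl4 (strain mean 8.83 CPM) and Tnnt2 (3.56 CPM) were highest in AJ. Tnni3 and Gja5 were highest in NZO, and Ryr2 and Bmp10 in Cast. The sum was 11.4 to 15.9 CPM in NZO and 4.84 to 9.49 CPM in Cast, both high in Myh6, and 9.95 to 15.3 CPM in B6, low in Myh6. The sum of 7 spindle markers, including Egr3 and Etv4, was 22.3 to 27.5 CPM in NZO and 22.4 to 28.3 CPM in B6, and over all strains it ran from 20.2 CPM in 129 to 35.7 CPM in WSB. The part of these tissues in the Myh6 differences was not tested.

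Myh7b, the slow-tonic chain, was highest in NZO, as Myh7 and Myh6 were. Mean levels were 15.5 ± 6.25 CPM in NZO, 10.5 ± 2.28 in 129, 9.25 ± 3.53 in Cast and 9.08 ± 2.43 in PWK. They were 8.89 ± 1.94 CPM in AJ, 8.63 ± 0.703 in NOD, 6.64 ± 1.69 in WSB and 5.42 ± 2.19 in B6, and no neighbours were separated. NZO libraries lay at 9.05, 13.7 and 28.8 CPM and B6 libraries at 2.46, 5.27 and 8.77 CPM (lowest, median, highest), without overlap. Myh7b was higher in NZO (log2 difference 0.92, SE 0.147, adjusted p 1.35e-06) and lower in B6 (-0.80, SE 0.172, adjusted p 0.000242) than in the other strains. It was also lower in WSB (-0.48, adjusted p 0.0182), a call lost without WSB_5 (-0.40, adjusted p 0.062) and without all libraries that stood apart (-0.39, adjusted p 0.289). Trpc4ap, which overlaps Myh7b on the opposite strand, lay at 102 to 155 CPM, and its part in the counts of Myh7b was not tested.

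Myh8, the perinatal chain, stood out in Cast. Mean levels were 71.3 ± 20.8 CPM in Cast, 15.3 ± 3.66 in AJ, 6.95 ± 1.79 in 129 and 6.55 ± 3.77 in PWK. They were 4.83 ± 1.76 CPM in NZO, 4.36 ± 1.085 in WSB, 4.04 ± 1.10 in NOD and 3.64 ± 1.03 in B6. Cast libraries lay at 40.1, 65.9 and 99.1 CPM (lowest, median, highest) and the highest library elsewhere had 20.5 CPM, in AJ. All 7 Cast libraries were thus above every library of the other strains.

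The log2 difference of Myh8 was 3.62 in Cast (SE 0.133, adjusted p 3.3e-31), and 3.52 to 3.72 over the removals of single libraries. Cast was separated from AJ, its neighbour in the order (2.22, adjusted p 2.71e-12), and AJ from 129 (1.14, adjusted p 7.1e-05). AJ was higher than the mean of the others (1.09, SE 0.151, adjusted p 5.47e-08). B6 (-1.27), NOD (-1.12), WSB (-0.99) and NZO (-0.81) were lower, against a mean that includes Cast. With counts of Myh1, Myh2, Myh4 and Myh8 added into 1 feature, in which Myh4 prevails, the difference was 0.06 in Cast and not called.

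Myh3, the embryonic chain, was also highest in Cast and AJ. Mean levels were 25.3 ± 12.2 CPM in Cast, 18.7 ± 4.885 in AJ, 14.7 ± 6.75 in NZO and 9.45 ± 4.25 in PWK. They were 8.15 ± 3.045 CPM in NOD, 7.82 ± 2.25 in B6, 5.77 ± 2.29 in 129 and 4.98 ± 2.33 in WSB, and no neighbours were separated. Cast libraries lay at 11.8, 25.5 and 47.9 CPM and WSB libraries at 2.06, 4.75 and 7.62 CPM (lowest, median, highest), without overlap.

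Myh3 was higher in Cast (log2 difference 1.49, SE 0.202, adjusted p 6.15e-09, and 0.985 with adjusted p 0.00239 without the libraries that stood apart), AJ (0.99, adjusted p 8.08e-05) and NZO (0.60, adjusted p 0.0231) than in the other strains. It was lower in WSB (-1.19, SE 0.242, adjusted p 6.56e-05) and 129 (-0.94, adjusted p 0.0019). The NZO call was lost without NZO_1 (0.44, adjusted p 0.138), without NZO_3 (0.49, adjusted p 0.097) and in limma on the variance-stabilised values (0.40, adjusted p 0.0626). The WSB call was lost without the libraries that stood apart (-0.79, adjusted p 0.0815).

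Markers of regenerating or developing fibres were set beside these genes, and their sum was high in Cast but low in AJ. Over the 6 of 8 such markers analysed here it was 225 to 435 CPM in Cast, against 49.9 to 120.2 CPM in all other libraries. AJ, next in Myh8 and Myh3, had the lowest median sum of all strains, 55.3 CPM. In Cast most of the sum was Igfn1, a sarcomeric protein of the Z-disc, at 259.8 ± 75.4 CPM in Cast and 8.47 to 37.0 CPM as means of the other strains, of which AJ was lowest (log2 difference -1.71, adjusted p 2.31e-10). Myog, a transcription factor of muscle differentiation, was higher in Cast (log2 difference 1.37, adjusted p 1.03e-05), and Myod1, which acts earlier, was lower (-0.77, adjusted p 0.00486). In AJ neither Myog nor Myod1 was called (adjusted p 0.145 and 0.517). Ncam1, another marker of the list, was higher in Cast (0.44, adjusted p 5.03e-05) and in AJ (0.29, adjusted p 0.0097). Cdh15 had its highest strain mean in Cast, 29.4 CPM. Chrng, the fetal acetylcholine receptor subunit, averaged at most 0.745 CPM in any strain and was highest in AJ (log2 difference 3.24, adjusted p 2.25e-10). In Cast it was lower, with a mean of 0.0182 CPM and a highest library of 0.0619 CPM (adjusted p 0.00253), opposite to Igfn1 and Myog. The part of these markers in the Myh8 and Myh3 differences was not tested.

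The make-up of the family was then described as shares, each member's count per kilobase of exon divided by the sum over the 8 members of that library. Myh1, Myh2 and Myh4 together made 98.8% ± 0.635 of the family (SD over 61 libraries, range 95.3% to 99.8%). All 8 shares differed among strains (permutation F test, 100000 permutations, adjusted p from 2e-05 for Myh1, Myh6, Myh8 and Myh3 to 0.0283 for Myh2). Of the 64 comparisons of a strain with the mean of the other 7, 10 passed a two-sided permutation test, 7 of them higher and 3 lower.

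B6 had the most IIB-weighted family by mean share, with AJ (88.4% Myh4) and NZO (88.2%) close behind. The Myh4 share of B6 was 89.3% ± 0.821, against 85.9% in the other strains (difference 3.39 percentage points, adjusted p 0.0419). Its Myh1 share was 5.57% ± 0.297, against 8.86% (adjusted p 0.00672). Shares of 1 sum depend on each other, and in the edgeR fit the level of Myh4 was not called in B6 (log2 difference 0.10, adjusted p 0.268). The Myh6 share was 0.00298% in B6, against 0.0355% (adjusted p 0.0419), a call lost in 12 of the 61 removals of a single library. The Myh4 result sat at the threshold and was lost in 28 of the 61 removals of a single library, with adjusted p up to 0.0811. The removals used 5000 permutations in place of 100000, so their p-values are coarser. Without 129_2, for example, the difference stayed at 3.39 points while the adjusted p was 0.0525. A lost call thus need not mean that the removed library carried it. Raw counts in place of counts per kilobase also lost the Myh4 call (adjusted p 0.0525), as did leaving out the libraries that stood apart (adjusted p 0.0793).

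Cast had the largest share of Myh1, 11.1% ± 2.62 with libraries from 6.755% to 14.7%, against 8.07% in the other strains (adjusted p 0.0192). This was lost without Cast_1, Cast_2 or Cast_6 (adjusted p 0.0555 to 0.0754) and without the libraries that stood apart (adjusted p 0.101). The Myh8 share was 0.0478% ± 0.0145 in Cast, against 0.00461% in the other strains (adjusted p 0.00064), and reached 0.0898% in Cast when the length of the coding transcript was used. Of the 64 strain means of a share, 21 moved by more than their SD with that length and 23 with raw counts. The Myh3 share was 0.0334% in Cast and 0.0137% in the others (adjusted p 0.00352), lost without the libraries that stood apart (adjusted p 0.297).

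NZO had the largest Myh7 share. Myh7 made 1.82% ± 1.19 of the family in NZO, with libraries from 0.844% over a median of 1.43% to 4.43%, against 0.9855% in the other strains (difference 0.831 percentage points, adjusted p 0.00672). Without NZO_1 the difference was 0.458 points and still called. Shares of Myh6 (0.0689% against 0.0261%) and Myh7b (0.0187% against 0.01035%) were also higher in NZO, both with an adjusted p of 0.00352. Without NZO_1 these differences were 0.0276 and 0.00536 points, against 0.0428 and 0.00834 points with it. The Myh1 share was lower, 6.23% in NZO and 8.77% in the others (adjusted p 0.0419), and was lost in 23 of the 61 removals, again with 5000 permutations.

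**Figure D3:**
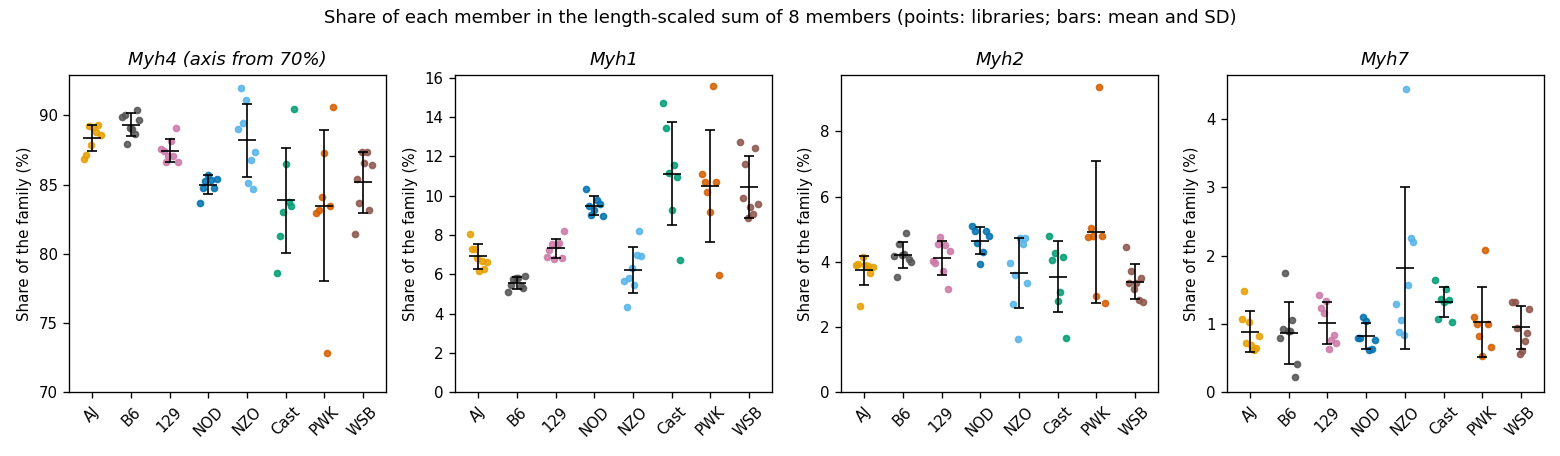
Shares of Myh4, Myh1, Myh2 and Myh7 in the length-scaled sum of the 8 members (percent) by strain, with 1 point per library and bars for the strain mean and SD. The Myh4 axis starts at 70% and the other axes at 0. PWK has the widest Myh4 shares, from 72.8% to 90.6%, and NOD libraries lie within 83.7% to 85.7%.

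PWK had the largest spread in the shares of Myh4, Myh1 and Myh2, while NZO had it for Myh7, Myh6 and Myh7b and Cast for Myh8 and Myh3. Its Myh4 share ran from 72.8% in PWK_6 over a median of 83.4% to 90.6%, its Myh1 share from 5.96% to 15.6% and its Myh2 share from 2.74% to 9.345%. The same library, PWK_6, had the lowest Myh4 of all 61 libraries, 41501 CPM, and the highest Myh2, 6318 CPM. No share of PWK passed the test. The widest contrast in spread was with NOD, where the Myh4 share ran from 83.7% to 85.7%.

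For the similar genes Myh6 and Myh7, and for Myh8 and Myh1, the ratio of CPM set strains apart. The ratios are not scaled by length, so they compare strains and not the levels of the 2 genes, and they were picked after the values were seen, so no test is given. Per 100 of Myh7, the median of Myh6 was 3.35 in PWK, 3.05 in 129, 2.92 in NZO, 2.88 in AJ and 2.72 in Cast. It was 0.763 in NOD, 0.689 in WSB and 0.2685 in B6. Libraries of the first 5 strains ran from 2.52 to 3.67 and those of the other 3 from 0.177 to 0.841, without overlap. The SD of the log2 ratio within strains was 0.30, and its strain means spanned 3.48. How the authors' counting divided reads of identical stretches is not given in the sources used here, and its part in these ratios was not tested.

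The ratio of Myh8 to Myh1 was highest in Cast and AJ. Per 100 of Myh1, Myh8 had a lowest, median and highest value of 0.698, 0.755 and 0.9205 in Cast and 0.1685, 0.303 and 0.376 in AJ. Medians of the other 6 strains lay between 0.0519 and 0.0992, and their highest library, NZO_1 at 0.204, overlapped the AJ range. Cast therefore did not overlap any other strain in this ratio, although its Myh1 was also the highest. The ratio of Myh7b to Myh7 differed far less, with medians from 0.640 in B6 to 1.03 in AJ per 100 of Myh7.

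**Figure D4:**
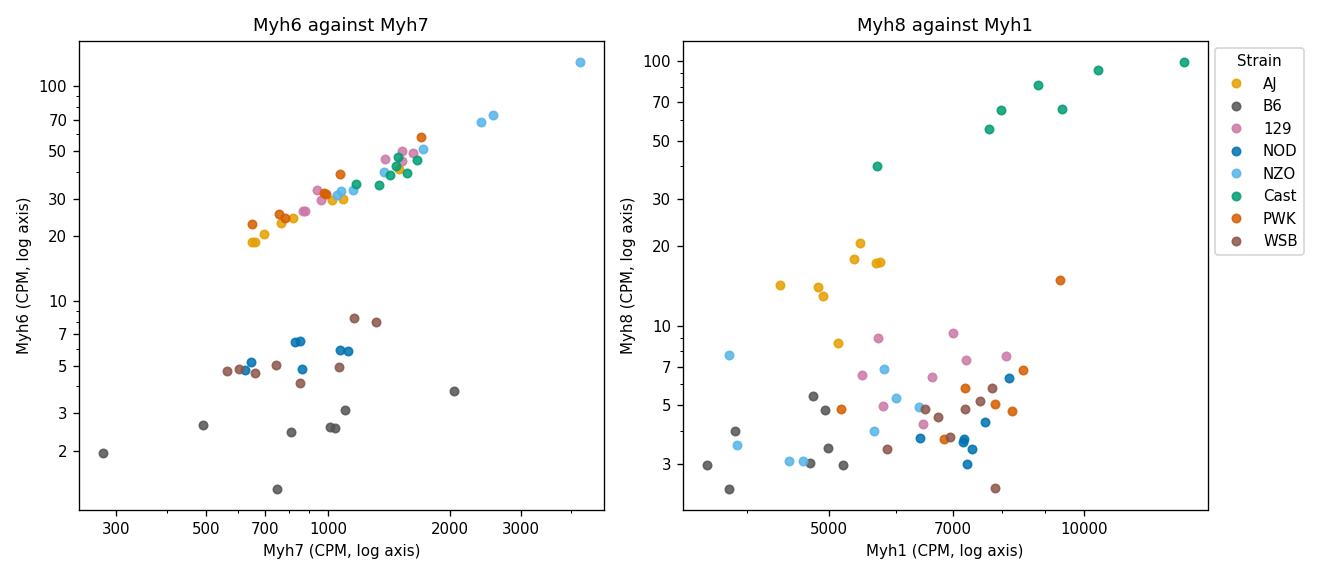
Myh6 against Myh7 and Myh8 against Myh1 in the 61 libraries (CPM, not scaled by length, log axes), coloured by strain. B6, NOD and WSB lie below the other 5 strains at the same Myh7, and Cast lies above every strain at the same Myh1, with AJ next and overlapped in ratio by 1 NZO library.

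Relations among libraries of the same strain were measured on log2 CPM after the strain means were removed. Of the 28 pairs of members, 17 were called after adjustment over the 28 pairs (two-sided permutation within strains, 100000 permutations, whose smallest raw p is 1e-05), 16 of them positive. Myh7, Myh6 and Myh7b varied together. Myh7 and Myh6 had r = 0.82 and rho = 0.84 (raw p 1e-05 each, adjusted p 4e-05 and 4.67e-05, n = 61), and r = 0.86 without the 2 libraries farthest in Myh7. Myh7 and Myh7b had r = 0.74 and rho = 0.69 (adjusted p 4e-05 and 4.67e-05), and r = 0.67 without those 2. Only strain means were removed, and sex is not labelled. Myh7, Myh6, Myh7b, Myh3 and Myh8 all rose with the transcript Xist, as given below. The part of sex and of shared reads in these relations was not tested.

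Among the fast genes, Myh1 and Myh2 had r = 0.535 and rho = 0.47 (raw p 0.00069 and 0.00063, adjusted p 0.00176 and 0.00136), and r = 0.39 without Cast_2 and Cast_8, the 2 farthest in Myh1. Without the 16 libraries that stood apart it was 0.29 (adjusted p 0.262). Myh4 and Myh1 showed no detectable relation (r = 0.08, rho = 0.21, raw p 0.624 and 0.153, adjusted p 0.624 and 0.205). The single negative call was Myh4 with Myh7 (r = -0.37, adjusted p 0.0135), with rho = -0.28 not called (adjusted p 0.0632). It was lost without PWK_6 (r = -0.31, adjusted p 0.0528). Myh8 and Myh3, the developmental pair, had r = 0.59 and rho = 0.57 (adjusted p 4e-05 and 9.33e-05), and r = 0.53 without the 2 farthest libraries.

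**Figure D5:**
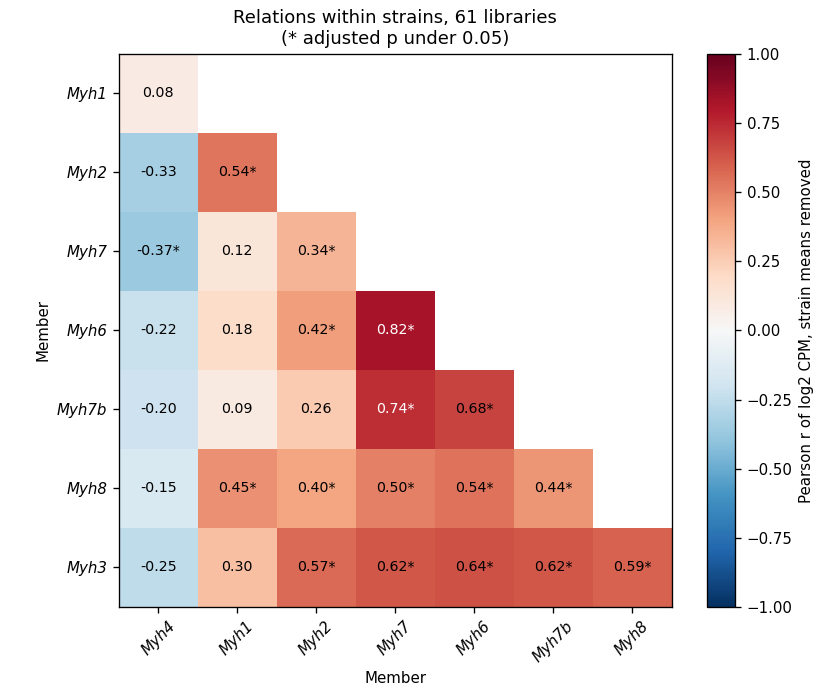
Pearson r between members over 61 libraries after removal of strain means (log2 CPM, prior count 2), with an asterisk where the permutation p adjusted over 28 pairs was under 0.05. The block of Myh7, Myh6, Myh3 and Myh7b holds values of 0.62 to 0.82, and the column of Myh4 holds values from -0.37 to 0.08.

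Outside the family, the genes most like Myh7, Myh4, Myh1, Myh2 and Myh6 over all 61 libraries were listed among 8868 genes with at least 5 CPM, as a description without a test. Those of Myh7 were Tnnc1, the slow troponin C (r = 0.97), Tnni1, the slow troponin I (0.955), Tpm3, the slow tropomyosin (0.91), and Tnnt1, the slow troponin T (0.90), and they kept r of 0.95 to 0.98 within strains. For Myh4 they were Actn3, the alpha-actinin of fast fibres (0.82), Mybpc2, the fast myosin-binding protein C (0.75), the transcription factor gene Foxo4 (0.70) and Bod1 (0.685). For Myh1 they were 4 genes of the mitochondrial respiratory chain and ATP synthase, Atp5b (0.81), Uqcrfs1 (0.785), Cox4i1 (0.77) and Ndufb6 (0.75), with r of 0.42 to 0.52 within strains. For Myh2 they were Dffa (0.69), Lrrc14b (0.69), Fhl1 (0.68) and Eef1a2 (0.65). For Myh6 they were Utp18 (0.89), Gdi2 (0.85), Ush1c (0.75) and Ptprm (0.72), of which only Gdi2 kept a positive r within strains (0.52, against -0.02 for Utp18).

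Partner genes were counted from lists chosen with earlier results known. Of 80 listed genes 73 differed among the strains, where 85.5% of all genes did, and the median range was 1.44 for 12 slow fibre partners and 0.46 for 12 fast fibre partners. In NZO, 9 of the 12 slow partners were higher and 0 lower, where 14.6% of all genes were higher and 12.7% lower, with a median log2 difference of 1.02, against -0.02 over all genes. Atp2a2, the slow calcium pump of the sarcoplasmic reticulum, had 1197 ± 545 CPM in NZO and 547 ± 68.0 CPM in the other strains (log2 difference 1.14, adjusted p 1.51e-10). Myl3, the slow myosin light chain, had 348 ± 161 and 158 ± 45.8 CPM in the same comparison (1.19, adjusted p 2.29e-10). The fast partners of NZO were mixed, with 2 higher and 2 lower and a median of -0.006.

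In 129, where Myh4 was higher, 4 of the 12 fast partners were higher and 0 lower, where 14.2% of all genes were higher and 11.4% lower (median 0.18, against -0.02 over all genes). Among them were Actn3 (0.39, adjusted p 0.000197) and Mybpc2 (0.29, adjusted p 0.00219). WSB, where Myh2 and Myh4 were lower, had 0 higher and 4 lower fast partners (median -0.08) and 0 higher and 5 lower slow partners (median -0.46), against 0.02 over all genes. In WSB 38.3% of all genes were called, near the shares of both lists. Actn3 had 4675 ± 669 CPM in WSB and 6336.5 ± 1018 CPM in the other strains (-0.42, adjusted p 0.000103), and Myl3 91.2 ± 18.9 and 195 ± 76.1 CPM (-1.015, adjusted p 9.47e-07). B6, where 26.2% of all genes were called, had 2 slow partners higher and 3 lower, and Casq2, which binds calcium in slow fibres, was higher (0.68, adjusted p 0.0021) while Myh6 and Myh7b were lower.

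Of 32 fibre-type regulators 28 differed among strains, with a median range of 0.74. In NZO 6 were higher and 0 lower, a total below the 27.3% of all genes called there (14.6% higher, 12.7% lower). Among the 6 were Nfatc1, a calcineurin-dependent factor of slow genes (0.37, adjusted p 4.71e-08), and Prox1, a homeobox factor (0.78, adjusted p 2.98e-05). In NOD, where 11.9% of all genes were higher and 9.79% lower, 9 were higher and 1 lower, among them Ppargc1a, a coactivator of oxidative metabolism, at 129 ± 16.3 CPM in NOD and 66.2 ± 16.02 CPM in the other strains (1.01, adjusted p 0.00013). In Cast 6 were higher and 13 lower, a total near the 61.8% of all genes called there, with Esrrb higher (0.86, adjusted p 3.35e-10) and Maf, a factor known for control of Myh4 in mice, lower (-1.11, adjusted p 4.94e-08), while Myh4 itself was not called in Cast (0.02, adjusted p 0.867). In WSB Myod1 was higher, 29.8 ± 8.18 CPM in WSB and 12.7 ± 2.94 CPM in the others (1.26, adjusted p 2.18e-07).

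Of 18 genes of myosin folding and breakdown, 16 differed among strains. In Cast 8 were higher and 4 lower, near the 61.8% of all genes called there, led by the ubiquitin ligases of muscle breakdown. Trim63 (MuRF1) had 1656 ± 1566 CPM in Cast and 253 ± 101 CPM in the other strains (2.79, adjusted p 5.1e-16), and Fbxo32 (atrogin-1) 1851 ± 1326 and 515 ± 134 CPM (1.89, adjusted p 1.23e-13). The spread among Cast libraries was wide for both genes. Cast_1, Cast_3, Cast_7 and Cast_8 were among the libraries that stood apart, and values without them are not given here. In WSB, where 21.4% of all genes were higher and 17.0% lower, 4 were higher and 9 lower, with the chaperone Hsp90aa1 higher (1.15, adjusted p 1.18e-09) and Smyd2, a methyltransferase, lower (-0.59, adjusted p 5.33e-07).

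Of 6 other class II heavy chains, 5 differed among strains. Myh13, the extraocular chain at the end of the same chromosome 11 cluster, had 0.278 ± 0.129 CPM in NOD and 3.48 ± 1.14 CPM in the other strains (-3.58, adjusted p 1.86e-20). Its NOD libraries lay at 0.1195, 0.2497 and 0.526 CPM (lowest, median, highest), below the lowest library of every other strain, 1.315 CPM. Myh10, a nonmuscle chain, was higher in NZO (72.6 ± 11.7 CPM, against 43.2 ± 6.13 CPM, 0.76, adjusted p 7.46e-08). The nonmuscle gene Myh9 was the member of this list that was not called (adjusted p 0.0942).

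Sex is not labelled, and Xist, a transcript of the inactive X chromosome of females, ran from 0.0362 to 278 CPM over the libraries. In a fit with log2 CPM of Xist beside strain, 5 of the 8 members were called and all 5 rose with Xist, where 14.3% of all genes were called (6.95% with and 7.31% against Xist). Myh7 rose by 0.091 on the log2 scale per log2 unit of Xist (SE 0.014, adjusted p 4.81e-06), Myh3 by 0.094, Myh8 by 0.067, Myh6 by 0.0615 and Myh7b by 0.058. Each value is per doubling of Xist, whose range spans many doublings. In this fit, libraries at the ends of that range differ by many times the value given. The adult fast genes Myh1, Myh2 and Myh4 were not called (adjusted p 0.231, 0.151 and 0.44). With this term in the fit all 8 members still differed among strains, and 36 of the 64 combinations of member and strain were called.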

How the data were processed

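Per the labels' protocols, RNA of frozen, pulverised tissue was poly(A)-selected with oligo-dT beads and made into KAPA mRNA HyperPrep libraries. Genome build GRCm38 and DESeq2 are named in the submitters' processing notes. Not given in the sources used here: aligner, counting tool, annotation and use of strand. How well reads of each strain align to this build, or divide among near-identical members, was not tested. Expected counts, which are unscaled estimates of reads and were whole in 80.4% of values, were deposited by the authors for 19462 genes, as were variance-stabilised log2 values.

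The design had assumed whole counts, so expected counts were rounded. After filterByExpr (16682 genes kept) and TMM scaling, edgeR 4.0.16 in R 4.3.3 fitted all 61 libraries by strain with 53 residual degrees of freedom, and its quasi-likelihood F test was used. The Benjamini-Hochberg adjustment ran over all genes in each comparison, with a threshold of 0.05. Compared were all strains together, single strains against the mean coefficient of the other 7, and neighbours in the order of levels. For the other strains, levels are averages of strain means with their SD. SEs were computed as the size of the log2 difference over the root of F. Lengths are unions of GENCODE M21 exons. Genes most like a member were the 4 with the highest Pearson r, and up to 2 genes per direction with the largest F were named from each list. The members, lists and comparisons were chosen with earlier results of these data known. Opposite-strand genes overlap Myh1 (Myhas, 0.451 to 23.8 CPM), Myh2 (9430073C21Rik, 0.4515 to 12.8 CPM), Myh7 (Mhrt, at most 0.409 CPM) and Myh7b, and without known strand use their reads cannot be told apart from the member's. Alternatives were DESeq2 1.42.0, limma 3.58.1 on the variance-stabilised values, other scalings, filters, lengths and covariates, merged counts, a replicate block and removal of single libraries.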

Additional observations from a re-analysis of the deposited data

Results flagged for a closer look

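In 7 of the 64 groups of a member in a strain, 1 library lay far from the others of its group by Dixon's test, and chance alone flags about 1 in 20 groups. Myh7 was 1701 CPM in PWK_6, against 649 to 1069 CPM in the other PWK libraries, and Myh8 was 14.8 CPM in PWK_6, against 3.725 to 6.803 CPM. The same library had the lowest Myh4 level of all. Myh6 was 130.0 CPM in NZO_1, against 31.1 to 73.3 CPM in the other NZO libraries, and Myh7b was 28.8 CPM in NZO_1, against 9.05 to 18.0 CPM. NZO_1 also had the highest Myh7 of all 61 libraries, 4196 CPM. Myh7 was 2044 CPM in B6_3, against 277.5 to 1104 CPM in the other B6 libraries. Myh8 was 6.36 CPM in NOD_1, against 3.01 to 4.34 CPM in the other NOD libraries. Myh2 was low in AJ_3, at 2344 CPM, against 3075 to 3635 CPM in the other AJ libraries.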

How the results depend on the processing

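All 8 members differed among strains with DESeq2's size factors or test, limma, no or a stricter filter, each covariate and every removal of a single library. The count of called combinations of member and strain, 33, lay between 32 and 36 under these settings. It was 25 with Myh6 and Myh7 counts added, and 20 with counts of Myh1, Myh2, Myh4 and Myh8 added, where 5 features remained and all 5 differed. In that sum, dominated by Myh4, signs turned for Myh1 in B6 (0.052), NZO (0.059) and PWK (-0.075). They also turned for Myh8 in AJ (-0.069), B6 (0.052) and NZO (0.059). With Myh6 and Myh7 added, in a sum dominated by Myh7, Myh6 turned in AJ (-0.315) and PWK (-0.15). Of the 33 differences, marker sums of other tissues as covariates lost 1 (Myh2 in 129, 0.215, adjusted p 0.118) and so did the GT20 number of the titles (the same, 0.27, adjusted p 0.0606). On the log2 scale 19 of the 64 shares were called in place of 10, and 6 without Cast_6 to 14 without Cast_1. Removals of single libraries gave 71 to 74 listed genes, 7 or 8 shares differing among strains and 14 to 20 relations. Permutation tests in these removals used 5000 permutations in place of 100000. Removal of the 16 libraries that stood apart and the added tests of strain shares and relations were chosen after seeing the data. Without these libraries 32 combinations were called, of which 28 were among the original 33. Of 11 strain shares called, 6 were among the original 10. Further, 7 shares differed among strains, 13 relations were called and 9 neighbouring pairs were separated, against 6 with all libraries. Replicate numbers of the titles were shared by strains. Deviations of same-numbered libraries from their strain means had a median correlation of 0.011 over 186 pairs, 72 of them above 0.1. The median was 0.0 over 1441 pairs with different numbers. Of 61 libraries 11 were closest to their own number, and no chance value was computed for this count. With the number as a replicate block, 35 combinations, 13 strain shares and 16 relations were called, and all 33 differences kept their call. Neighbouring strains were not tested again with single libraries removed. Low counts limit Myh6, Myh8, Myh7b and Myh3, whose smallest estimated counts were 13.2, 29.3, 34 and 51 in a library.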
